A study of Mus musculus with 32 samples.

Results

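The Hox cluster genes encode homeodomain transcription factors that lie in 4 clusters, Hoxa on chromosome 6, Hoxb on chromosome 11, Hoxc on chromosome 15 and Hoxd on chromosome 2. Members were taken as the protein-coding genes whose GENCODE M21 symbol is Hox, a cluster letter from a to d and a paralog number. Of 39 such genes in the annotation, 30 were in the files of all assays, among 25058 genes in all: 8 of Hoxa, 10 of Hoxb, 5 of Hoxc and 7 of Hoxd. Hoxa4, Hoxa5, Hoxa6, Hoxc6, Hoxc8, Hoxc9, Hoxc10, Hoxd4 and Hoxd12 were not analysed here.

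The samples were kidney, liver, lung and spleen of female C57BL/6J mice, 6 to 7 months old. Treated mice received 10 mg/kg cisplatin by intraperitoneal injection at ZT1, and controls the same volume of saline; the protocol gives death at ZT5, whereas the sample labels give 2 h after treatment. RNA-seq, which reads polyadenylated transcripts, covered 2 control and 2 cisplatin libraries per organ. Damage-seq, which maps cisplatin adducts still in the DNA, and XR-seq, which maps the short fragments cut out by nucleotide excision repair, covered 2 cisplatin libraries per organ and no control. The study's methods call the replicates biological, but the labels number the libraries of a group without naming the animals, so p-values measure the spread between these samples, which may in part be technical.

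In the embryo, Hox genes are switched on in the order in which they lie on the chromosome: low paralog numbers (anterior genes) act towards the head and high numbers (posterior genes) towards the tail. Adult organs keep part of this code, and silent members are typically held under Polycomb repression. Cisplatin crosslinks neighbouring guanines (GG). Transcription-coupled repair acts on the transcribed strand (TS) of active genes, where RNA polymerase stalls at the adduct, whereas global repair acts on both strands, the non-transcribed strand (NTS) included.

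RNA-seq levels are given as RPKM, which is reads per kilobase of exon scaled to the library's reads on genes. Tests by edgeR scale libraries by TMM instead, and there liver can lie higher against the other organs than by RPKM. XR-seq and Damage-seq levels are given as reads, scaled to the library's reads on genes (RPM), per 1000 GG sites on that strand of the gene body, written as reads per 1000 GG. Library totals ranged from 15612743 to 162268216 reads on genes in RNA-seq, from 10658675 to 59779770 in XR-seq and from 1571167 to 6441367 in Damage-seq. Organ markers matched the labels in every RNA-seq library. Kidney markers summed to 2660 to 3624 RPKM in kidney and at most 5.88 RPKM elsewhere, and lung markers to at least 108173 RPKM in lung and at most 42.0 RPKM elsewhere. The control pairs of lung and of spleen differed by little more than sampling noise (variance 2.75 and 2.98 times the Poisson value, against 39.3 to 349 for the other RNA-seq pairs) and each was counted as 1 sample, which leaves 14 RNA-seq samples. The Damage-seq pairs of all organs lay between 1.43 and 3.11 times the Poisson value and were kept as 2 samples each. Spleen libraries also held pancreas markers, at 6.68 to 1302 RPKM.

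The promoters of 3 members with different organ patterns are shown: Hoxd8, whose RNA was highest in kidney, Hoxb4, which had RNA in all 4 organs, and Hoxa2, an anterior gene with most RNA in lung. The repair and damage levels cover gene bodies, not the bases before the start, and a link of these sequences to the organ patterns was not tested. The sequences are RefSeq's on GRCm38.p6, from 250 bases before to 50 bases after the transcription start, with each run of GG in capitals as the candidate cisplatin site on the coding strand. A cc pair marks a GG on the other strand.
Hoxd8, chr2:74704365-74704664, plus strand: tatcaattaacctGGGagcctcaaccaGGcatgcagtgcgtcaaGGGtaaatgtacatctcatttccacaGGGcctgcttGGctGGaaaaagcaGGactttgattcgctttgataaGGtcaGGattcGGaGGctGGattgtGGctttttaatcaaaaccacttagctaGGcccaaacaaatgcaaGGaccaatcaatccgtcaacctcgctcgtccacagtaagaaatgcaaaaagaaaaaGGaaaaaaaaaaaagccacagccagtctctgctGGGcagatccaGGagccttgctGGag
Hoxb4, chr11:96318017-96318316, plus strand: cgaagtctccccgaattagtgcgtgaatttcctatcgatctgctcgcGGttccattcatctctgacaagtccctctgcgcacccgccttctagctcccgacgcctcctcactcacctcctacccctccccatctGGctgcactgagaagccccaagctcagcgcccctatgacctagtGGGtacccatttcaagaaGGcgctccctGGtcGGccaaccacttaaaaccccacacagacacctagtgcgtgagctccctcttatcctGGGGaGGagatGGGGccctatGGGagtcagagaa
Hoxa2, chr6:52164782-52165081, minus strand: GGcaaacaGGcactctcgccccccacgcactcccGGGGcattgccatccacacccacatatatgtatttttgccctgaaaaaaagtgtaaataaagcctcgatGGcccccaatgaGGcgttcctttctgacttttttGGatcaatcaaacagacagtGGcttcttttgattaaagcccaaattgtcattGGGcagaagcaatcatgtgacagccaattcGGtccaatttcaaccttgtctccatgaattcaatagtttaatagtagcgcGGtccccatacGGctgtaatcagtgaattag
The Hoxd8 promoter held 23 GG on the coding strand and 16 on the template strand, the Hoxb4 promoter 16 and 44, and the Hoxa2 promoter 14 and 28. Over the 18 members with a promoter in the table, the median was 58.5 GG over both strands and 13.5 CG, against 48 and 7 over all 32851 promoters. The motif TGATNNAT, the kind of site that PBX and HOX proteins bind together, was found on either strand in 3 of the 18 (Hoxa2, Hoxb1 and Hoxb8) and in 8.85% of all promoters. AGGTCA, the core of retinoic acid receptor sites, was found in 5 (Hoxb4, Hoxc4, Hoxd3, Hoxd8 and Hoxd10) and in 16.3% of all, and TTTATG in 4 (Hoxa7, Hoxb8, Hoxd3 and Hoxd11) and in 11.9% of all. In gene bodies the members had a median of 84.8 GG per 1000 bases and strand, against 60.4 over protein-coding genes.

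The clusters also carry microRNA genes whose products target Hox transcripts. The mature forms are shown with the seed (bases 2 to 8) in capitals, since the seed groups them into families.
mmu-miR-196a-5p: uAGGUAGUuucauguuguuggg
mmu-miR-196b-5p: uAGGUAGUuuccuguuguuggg
mmu-miR-10a-5p: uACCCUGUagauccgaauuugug
mmu-miR-10b-5p: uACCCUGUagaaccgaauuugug
The miR-196 pair shares the seed AGGUAGU and the miR-10 pair the seed ACCCUGU. Mir196a-1, at chr11:96265164-96265265 upstream of Hoxb9, and Mir10a, at chr11:96317165-96317274 upstream of Hoxb4, had counts in the files; the other microRNA genes of the clusters were not analysed here.

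The kidney had by far the most Hox RNA, with 14 of the 30 members at or above 1 RPKM (mean over samples), against 6 in lung, 4 in spleen and 0 in liver. Over all 18639 protein-coding genes that share was 59.4% in kidney, 64.8% in lung, 60.4% in spleen and 50.0% in liver. The posterior limit differed by organ. In kidney it reached Hoxa11, Hoxb9 and Hoxd10, whereas in lung and spleen it stood at Hoxa7 and Hoxb7, with no Hoxc or Hoxd member at 1 RPKM. In the control samples alone the spleen count was 2, Hoxb4 and Hoxb7, since Hoxa7 and Hoxa2 were below 1 RPKM there, and in kidney Hoxa11 was below 1 RPKM and Hoxb3 reached it (1.01 RPKM). Summed over a cluster, Hoxd RNA was 92.9 to 131 RPKM in the 4 kidney libraries, at most 1.41 RPKM in lung, 0.415 RPKM in spleen and 0.214 RPKM in liver. Hoxb RNA summed to 92.9 to 141 RPKM in kidney, 15.4 to 22.0 in lung, 7.92 to 10.6 in spleen and 1.25 to 2.47 in liver. In bulk tissue, fewer expressing cells and less RNA per cell cannot be told apart.

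**Figure D1:**
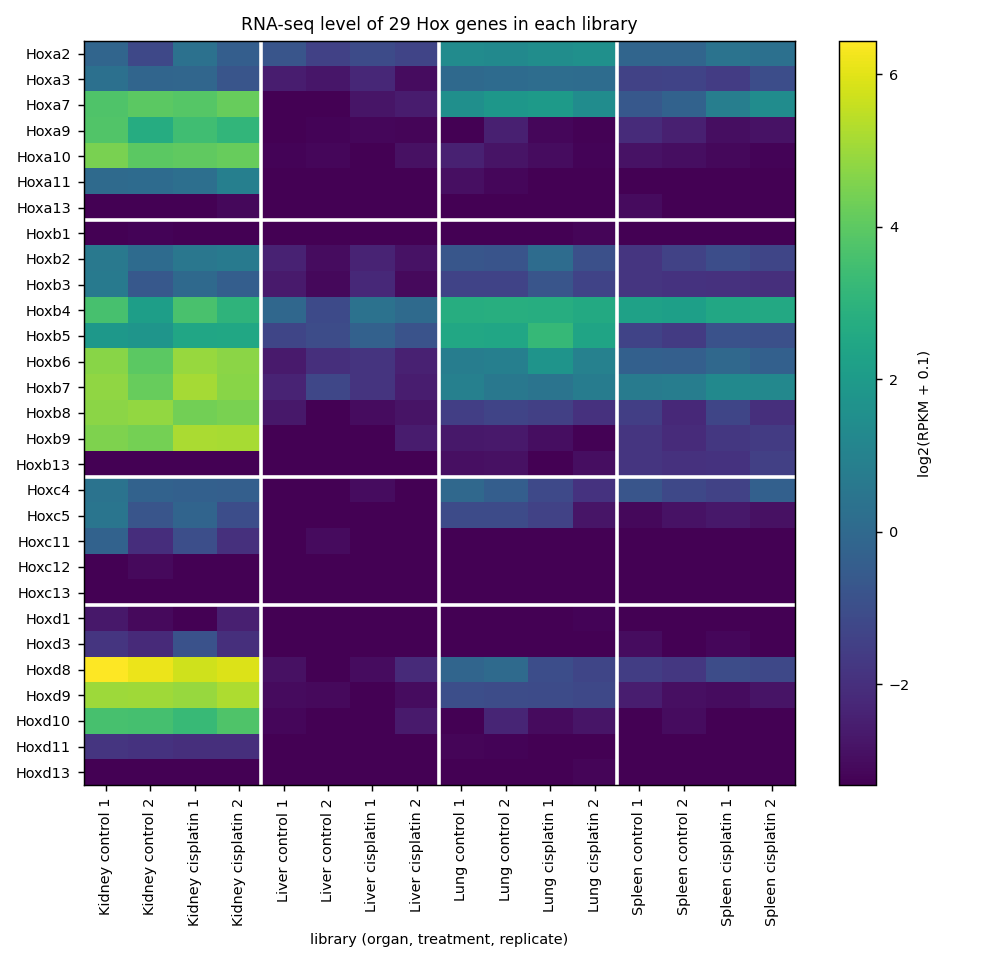
RNA-seq level of 29 Hox genes (rows, by cluster and paralog number) in each of the 16 libraries (columns), coloured by log2(RPKM + 0.1). The 4 kidney libraries hold the high values from Hoxa7 to Hoxa10, Hoxb4 to Hoxb9 and Hoxd8 to Hoxd10, the last genes with a mean of 1 RPKM over all samples in lung and spleen are Hoxa7 and Hoxb7, and no liver mean reaches 1 RPKM.

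The most abundant member was Hoxd8, a central gene of the Hoxd cluster, at 86.5 and 70.8 RPKM in the kidney controls and 52.4 and 60.4 RPKM after cisplatin. All 12 libraries of the other organs were at or below 0.923 RPKM. Its neighbour Hoxd9 had 31.9 and 32.6 RPKM in kidney controls and 30.4 and 37.4 RPKM after cisplatin, and at most 0.406 RPKM elsewhere. Hoxd10, which acts with its paralogs in limb and kidney development, had 11.9 and 11.7 RPKM in controls and 9.56 and 13.2 RPKM after cisplatin, and at most 14 reads in any library elsewhere. Kidney did not overlap any other organ for these 3 genes. Against lung, the kidney level was higher by 7.18 on the log2 scale for Hoxd8 (SE 0.49, edgeR adjusted p = 9.23e-07), by 6.76 for Hoxd9 (SE 0.34) and by 8.00 for Hoxd10 (SE 0.65).

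Kidney was also highest for the central and posterior Hoxb genes. Hoxb9 had 23.1 and 21.2 RPKM in kidney controls and 36.6 and 35.7 RPKM after cisplatin, and at most 0.223 RPKM elsewhere. Hoxb8, a gene also known from blood progenitors, had 26.6 and 28.9 RPKM in kidney controls and 20.3 and 22.3 RPKM after cisplatin, against 0.116 to 0.309 RPKM in lung and spleen and at most 0.0556 RPKM in liver. Hoxb7, which marks the ureteric lineage in kidney, had 28.1 and 18.0 RPKM in kidney controls and 34.4 and 25.7 RPKM after cisplatin. In spleen Hoxb7 stood at 1.59 and 1.68 RPKM in controls and 2.41 and 2.27 RPKM after cisplatin, in lung at 1.26 to 1.78 RPKM and in liver at 0.0737 to 0.320 RPKM. Hoxb6 had 25.7 and 15.6 RPKM in kidney controls and 30.3 and 26.7 RPKM after cisplatin, 1.68 to 3.24 RPKM in lung, 0.666 to 0.872 in spleen and 0.0622 to 0.174 in liver. For Hoxb6 the 4 organs did not overlap.

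In the middle of Hoxb the organs came closer together. Hoxb4, a regulator of blood stem cells, had 11.8 and 4.34 RPKM in kidney controls and 12.2 and 8.02 RPKM after cisplatin. It had 6.62, 6.80, 6.60 and 5.94 RPKM in the lung libraries (controls first), 4.68, 4.49, 5.66 and 5.76 RPKM in spleen and 0.866, 0.361, 1.17 and 0.932 RPKM in liver. Kidney and lung overlapped, and their difference did not pass (log2 0.72, SE 0.33, adjusted p = 0.170); the difference between lung and spleen did not pass either (log2 0.30, SE 0.36, adjusted p = 0.628). Hoxb5, which acts in lung branching, had 5.74 and 5.33 RPKM in lung controls and 9.17 and 5.14 RPKM after cisplatin, against 3.55, 3.29, 5.33 and 5.52 RPKM in kidney. The kidney and lung values of Hoxb5 overlapped as well (log2 -0.25, SE 0.25, adjusted p = 0.651), while spleen, at 0.224 to 0.449 RPKM, lay below lung (log2 4.20, SE 0.33, adjusted p = 3.61e-06). Hoxb2, which patterns the hindbrain, had 0.974 to 1.51 RPKM in kidney, 0.426 to 0.995 RPKM in lung and less in spleen and liver.

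In the Hoxa cluster the order changed along the chromosome. Hoxa2, the most anterior-acting gene of this cluster in the hindbrain, was highest in lung, at 2.51 and 2.36 RPKM in controls and 2.63 and 2.86 RPKM after cisplatin, and all kidney libraries lay lower, at 0.338 to 1.16 RPKM (kidney against lung log2 -1.61, SE 0.36, adjusted p = 0.00587). Spleen, at 0.815, 0.810, 1.21 and 1.10 RPKM, overlapped kidney, and liver had 0.267 to 0.495 RPKM. With TMM scaling, the log2 difference was 0.12 for kidney minus liver (SE 0.35) and -0.38 for liver minus spleen (SE 0.37). Neither passed, so liver was not set apart from kidney or spleen for Hoxa2. Hoxa7 had 13.5 and 15.8 RPKM in kidney controls and 14.3 and 17.9 RPKM after cisplatin, 2.55 to 3.92 RPKM in lung and at most 0.0693 RPKM in liver. Hoxa9 had 13.7 and 6.46 RPKM in kidney controls and 10.9 and 8.48 RPKM after cisplatin, and Hoxa10 22.3, 15.8, 16.6 and 18.0 RPKM, both with at most 0.130 RPKM in any other library. These 2 genes, with known roles in blood and in the female reproductive tract, thus ended the Hoxa code of kidney together with Hoxa11, at 0.928 and 0.969 RPKM in controls and 1.09 and 1.73 RPKM after cisplatin. Hoxa11, which acts with its paralogs in kidney development, had 413 reads over the kidney libraries and none over the spleen libraries, at least 238-fold more per read sequenced (floor of 3 reads over the spleen libraries).

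The remaining members stayed below 1 RPKM on average in every organ. Hoxa3, Hoxb3, Hoxc4 and Hoxc5 had kidney levels up to 1.11, 1.47, 1.23 and 1.27 RPKM in single libraries, and Hoxc11, Hoxd3 and Hoxd11 up to 0.743, 0.443 and 0.184 RPKM. Hoxa3 had its highest mean in lung, at 0.908 to 1.02 RPKM, where it overlapped kidney. The terminal genes were nearly silent: Hoxa13, Hoxb1, Hoxc12, Hoxc13, Hoxd1 and Hoxd13 had fewer than 20 reads each over the 16 libraries. Hoxb13, known from prostate and hindgut, was the exception among the terminal genes, with 16, 31, 14 and 50 reads in the spleen libraries (0.166 to 0.260 RPKM), 18 reads over the lung libraries and none in kidney or liver. Against kidney this is at least 21.4-fold more in spleen (floor of 3 reads over the kidney libraries).

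The tests put these patterns against the genome. A gene was called where edgeR's test against a log2 fold of 0.4 gave a Benjamini-Hochberg adjusted p under 0.05 over 19099 genes, and 24 members passed the filter on low counts. Of these 24, 22 were higher in kidney than in liver, where 23.7% of all genes tested were called in that direction. Against lung 16 were higher in kidney (19.9% of all genes) and Hoxa2 was lower (26.2%), and against spleen 21 were higher (27.3%) and Hoxb13 was lower (30.4%). Of the calls for kidney over spleen, Hoxb4 had the largest adjusted p (0.0447, log2 1.02, SE 0.34). Liver was below lung for 14 members (33.7% of all genes were higher in lung) and below spleen for 10 (35.7% were higher in spleen), with Hoxb5 higher in liver than in spleen (23.3%). For Hoxb5 that difference was log2 1.53 (SE 0.28), but its RPKM overlapped, at 0.307 to 0.710 in liver and 0.224 to 0.449 in spleen. Between lung and spleen 9 members were higher in lung (23.3% of all genes) and 3 in spleen (23.2%), Hoxa9, Hoxb9 and Hoxb13. That count fell from 12 to 6 without the second cisplatin library of spleen and to 4 in the controls alone. The members' median log2 difference, with genes at 0 reads in an organ set at their bound, was 6.52 between kidney and liver, 4.11 between kidney and lung and 4.84 between kidney and spleen, against 0.08, -0.08 and -0.11 over all genes. Hoxa11, Hoxc11, Hoxd3 and Hoxd11 had 413 of 417, 75 of 77, 106 of 112 and 99 of 102 reads in kidney. Hoxb13 had 111 of 129 in spleen. Members like these passed the filter through 1 organ, so their calls and their part in these medians follow in part from the filter.

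The stromal and endothelial markers, whose cells also express Hox genes, did not share the order of the organs. Stromal markers summed to 9.99 to 22.3 RPKM in kidney, the lowest of the 4 organs, and 97.3 to 134 RPKM in lung. Endothelial markers summed to 37.4 to 55.5 RPKM in kidney and 360 to 398 RPKM in lung. Their part in the Hox levels was not tested.

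The files held 11 other genes inside the clusters, most of them antisense transcripts and microRNA genes. Hoxb5os, an antisense transcript across Hoxb5 and Hoxb6, had 370, 656, 189 and 652 reads in the kidney libraries (controls first) and at most 74 reads in any library of the other organs. Hoxd3os1, antisense to Hoxd8 and Hoxd3, had 122, 211, 119 and 356 reads in kidney and at most 27 elsewhere. The Mir196a-1 locus had 61, 115, 34 and 62 reads in kidney, none in liver and lung and at most 1 in a spleen library. Mir10a had 10, 4, 5 and 8 reads in kidney and up to 18 in lung; these are reads of longer polyadenylated transcripts over the hairpin, not of the mature microRNAs shown above. The RNA library kit did not mark strand, so reads of overlapping sense and antisense genes cannot be told apart, which touches 9 members, Hoxa3, Hoxa11, Hoxb5, Hoxb6, Hoxd3 and Hoxd8 among them.

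Pooled over the members, repair on the transcribed strand had the same organ order as the RNA. In XR-seq, the pooled TS level over all members was 40.8 and 42.7 reads per 1000 GG in the kidney libraries, 14.8 and 15.2 in lung, 7.14 and 7.19 in spleen and 2.09 and 2.26 in liver. The median member had 35.1 and 37.5 in kidney, 0.625 and 1.13 in lung, 1.47 and 1.95 in spleen and 0.836 and 0.973 in liver. By that median, spleen lay above lung, and lung and liver overlapped. In the first lung library Hoxa3 and Hoxb3 held 8026 and 7190 of the members' 20445 TS reads. Of 27 members tested on the TS, 20 were higher in kidney than in liver (12.3% of all genes), 15 than in lung (10.3%) and 18 than in spleen (11.7%). In the test over all organs 24 differed (58.3%). Liver was below lung for 11 members (14.9% of all genes were higher in lung) and below spleen for 8 (13% were higher in spleen). Lung was above spleen for 5 members (7.52%), and Hoxb9 was higher in spleen (8.43%); without the first lung library 2 of these 6 calls were made. Both kidney libraries lay above all 6 libraries of the other organs for 22 of the 30 members, and for 12.7% of all genes. Hoxd10 had 283 and 194 TS reads in kidney and at most 12 in any other library. Members like this passed the filter mainly through kidney, so their calls follow in part from the filter.

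**Figure D2:**
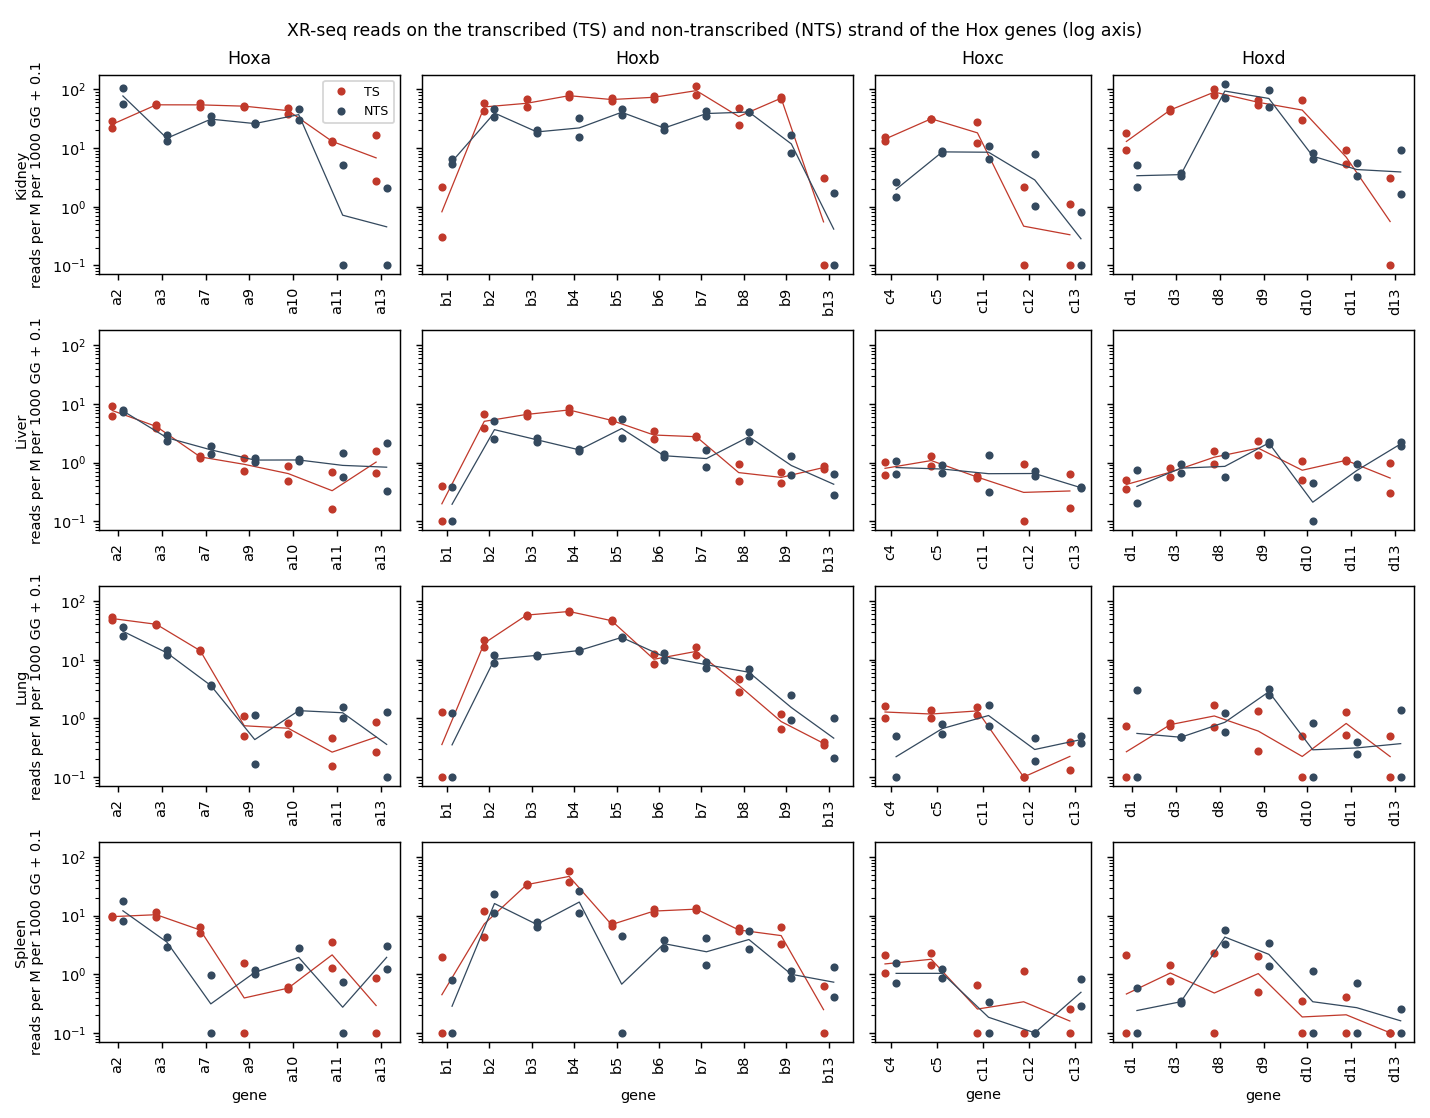
XR-seq level of 29 Hox genes (log axis, RPM per 1000 GG, plus 0.1) along the 4 clusters (columns) in the 4 organs (rows), on TS (red) and NTS (dark blue). Points are the 2 libraries and lines join their geometric means. In kidney the TS level stays above 10 from Hoxa2 to Hoxa11 and from Hoxb2 to Hoxb9, whereas in lung the TS level drops from 13.8 and 14.4 at Hoxa7 to 0.404 and 1.01 at Hoxa9.

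The repair maps showed the boundaries of the code at single genes. In lung, Hoxa2 had 52.6 and 47.9 reads per 1000 GG on the TS, Hoxa3 41.1 and 39.1 and Hoxa7 13.8 and 14.4, while the next gene, Hoxa9, had 0.404 and 1.01. In kidney Hoxa9 had 50.6 and 52.9 reads per 1000 GG on the TS and Hoxa10 38.6 and 48.6, and the level dropped at Hoxa11, to 12.8 and 13.0. In Hoxb the lung TS level was 65.1 and 67.5 at Hoxb4, 44.8 and 47.7 at Hoxb5, 8.21 and 12.4 at Hoxb6, 16.1 and 11.8 at Hoxb7, 2.75 and 4.62 at Hoxb8 and 0.560 and 1.08 at Hoxb9. In kidney the same genes from Hoxb5 on had 72.1 and 62.6, 77.9 and 69.1, 113 and 80.5, 25.0 and 47.4, and 68.2 and 73.7, with Hoxb8 the lowest of them. Of the anterior genes, Hoxa2 had 22.0 and 29.2 in kidney, below lung in both libraries, and Hoxb2 had 42.2 and 59.8 in kidney against 16.5 and 22.0 in lung. In spleen Hoxb4 had 37.3 and 57.5 and Hoxb9 6.28 and 3.14. Hoxb4 thus had TS repair in kidney (73.4 and 83.2), lung and spleen, and 8.50 and 7.12 in liver, the highest TS level of any Hoxb member there.

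The Hoxd cluster gave the sharpest contrast. In kidney the TS levels were 101 and 80.3 for Hoxd8, 54.5 and 66.5 for Hoxd9 and 66.0 and 29.8 for Hoxd10, whereas no library of another organ exceeded 2.20 at these 3 genes. The kidney TS level of Hoxd8 was above that of lung by 6.30 on the log2 scale (SE 0.80, edgeR adjusted p = 8.49e-05). Hoxd3 had 45.6 and 43.6 on the TS in kidney at an RNA level of at most 0.443 RPKM. Its gene body spans Hoxd4, which was not analysed here, so its repair reads may lie in that gene; the same holds for Hoxa3, which spans Hoxa4 to Hoxa6, and Hoxc5, which spans Hoxc6 to Hoxc9. Hoxc5 had 31.6 and 31.4 in kidney and at most 2.18 elsewhere.

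Expression and TS repair ranked the members alike within each organ. Spearman's rho across the 30 members, between mean RPKM and mean TS level after cisplatin, was 0.846 in kidney, 0.812 in lung, 0.780 in spleen and 0.798 in liver; across all 18639 protein-coding genes it was 0.794, 0.760, 0.790 and 0.719. On the NTS it was 0.751, 0.771, 0.726 and 0.705 across the members, and 0.543, 0.512, 0.502 and 0.583 across protein-coding genes. Members of a cluster are neighbours and share libraries, so these values are descriptions. Of the 15 members at or above 1 RPKM in some organ, 14 had their highest RNA and their highest TS level after cisplatin in the same organ. Kidney had the highest TS level for 14 of these 15 members. Over all 30 members, 24 matched. Among the 15, XR-seq matched for 13 on the NTS, and Damage-seq for 9 on the TS and 12 on the NTS. The match over all genes was not counted.

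**Figure D3:**
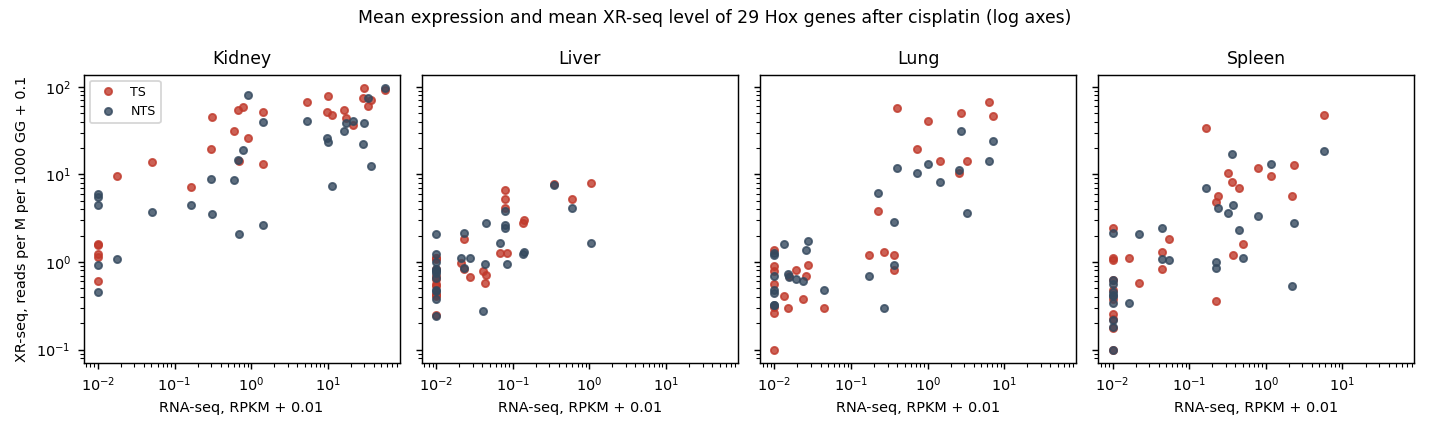
Mean RNA-seq level (RPKM + 0.01, log axis) against mean XR-seq level (RPM per 1000 GG + 0.1, log axis) of 29 Hox genes after cisplatin in each organ, with TS in red and NTS in dark blue. Levels on both strands rise with RNA in each panel, with TS rho of 0.780 to 0.846 across all 30 members, and liver has no member beyond about 1 RPKM.

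Repair of the non-transcribed strand was also highest in kidney. The pooled NTS level over all members was 17.5 and 13.5 reads per 1000 GG in kidney, 4.73 and 5.01 in lung, 2.49 and 2.53 in spleen and 1.33 and 1.43 in liver. In the test over all organs 17 of 29 members differed on the NTS (26.3% of all genes). Pairwise, 17 were higher in kidney than in liver (2.9% of all genes), 6 than in lung (2.9%) and 13 than in spleen (4.51%). Both kidney libraries lay above the 6 others for 21 of the 30 members and 15.5% of all genes. The 6 above lung were Hoxa9, Hoxa10, Hoxc5, Hoxd3, Hoxd8 and Hoxd9. Hoxd8 had 126 and 70.0 reads per 1000 GG on the NTS in kidney and at most 5.50 elsewhere, a log2 difference from lung of 5.99 (SE 0.61, adjusted p = 0.000547). The antisense gene Hoxd3os1 overlaps Hoxd8, and whether it was itself transcribed in kidney cannot be told apart from Hoxd8 in these RNA reads. Hoxd9, with no antisense gene in the files, had 97.6 and 50.3 on the NTS in kidney.

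The TS/NTS ratio of repair was lower over the Hox genes than over all genes. Pooled over members, the TS/NTS ratio of XR-seq reads per GG was 2.44 and 3.02 in kidney, 3.22 and 2.96 in lung, 2.89 and 2.82 in spleen and 1.58 and 1.57 in liver, against 5.78 and 5.79, 9.14 and 8.80, 7.84 and 7.76, and 5.89 and 5.25 over all genes. The median log2 TS/NTS over the members was 0.90 in kidney, 0.48 in lung, 0.99 in spleen and 0.04 in liver, against 2.53, 2.93, 2.89 and 1.92 over all genes tested. The difference between members and other genes was not tested. TS exceeded NTS in edgeR's test against 0 for 7 of 30 members in kidney (55.2% of all genes), 5 in lung (57.9%), 7 in spleen (56.6%) and 3 in liver (50.2%), and NTS exceeded TS for Hoxb8 in liver (6.02%) and Hoxa10 in spleen (6.11%). The 4 liver calls fell to 1 without either liver library, the 5 lung calls to 2 without the first lung library and to 3 without either liver library, and the 8 spleen calls to 5 without the first spleen library.

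The TS/NTS ratio itself differed for 1 member each between kidney and liver (5.37% of all genes), kidney and lung (10%) and liver and spleen (13.2%) in XR-seq, and between kidney and liver (9.04%), kidney and lung (1.6%) and liver and lung (6.29%) in Damage-seq.

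Among the members that passed in an organ, Hoxa3 and Hoxb3 passed in 3 and 4 organs. Hoxb4 passed in lung (log2 2.22, SE 0.57, edgeR adjusted p = 0.00816) and liver (log2 2.33, SE 0.60, edgeR adjusted p = 0.00974) as well as in kidney. In kidney the log2 TS/NTS was 1.90 for Hoxa3 (SE 0.28, adjusted p = 0.000394), 1.63 for Hoxb3 (SE 0.21, adjusted p = 0.000183), 1.83 for Hoxb4 (SE 0.57, adjusted p = 0.0226) and 3.70 for Hoxd3 (SE 0.36, adjusted p = 4.14e-05). Hoxb6, Hoxb9 and Hoxc5 also passed in kidney. The most expressed members did not: Hoxd8 had 567 and 684 TS reads and 670 and 567 NTS reads in kidney, a log2 TS/NTS of -0.06 per GG (95% interval -1.89 to 1.78), and Hoxd9, Hoxa10 and Hoxb8 had intervals that included 0 as well. For Hoxa2 the kidney libraries had more NTS reads (320 and 258) than TS reads (79 and 159), a log2 TS/NTS of -1.60 (SE 0.64) that did not pass (adjusted p = 0.0589). In lung Hoxa2 had 613 and 398 TS reads and 252 and 252 NTS reads, and the difference of its ratio between kidney and lung did not pass (log2 -2.33, SE 0.89, adjusted p = 0.147).

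Relative to each library's reads, adducts still in the Hox genes differed less between organs than repair did. This scaling removes differences between organs in total adducts and total repair. The paper reports adduct formation as highest in kidney and lowest in spleen. In Damage-seq the pooled NTS level over all members was 16.6 and 18.5 reads per 1000 GG in kidney, 10.0 and 10.2 in lung, 11.2 and 11.7 in spleen and 9.69 and 11.4 in liver. Of 27 members tested on the NTS, 8 differed in any organ (18% of all genes): Hoxa3, Hoxa7, Hoxa9, Hoxb3, Hoxb6, Hoxb9, Hoxc5 and Hoxd3. The count was 3 without the first kidney library, 5 without the second and 5 by DESeq2. Both kidney libraries lay above all 6 others on the NTS for 14 of the 30 members, and for 17.2% of all genes. In pairwise tests Hoxa3 was higher in kidney than in each other organ (log2 1.01, SE 0.16, adjusted p = 0.00635 against liver). In all, 2 members were higher in kidney than in liver (2.92% of all genes), 3 than in lung (1.15%) and 1 than in spleen (0.903%). The median log2 difference of the members on the NTS was 0.83 from liver, 0.75 from lung and 0.52 from spleen, against 0.01 over all genes in each.

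**Figure D4:**
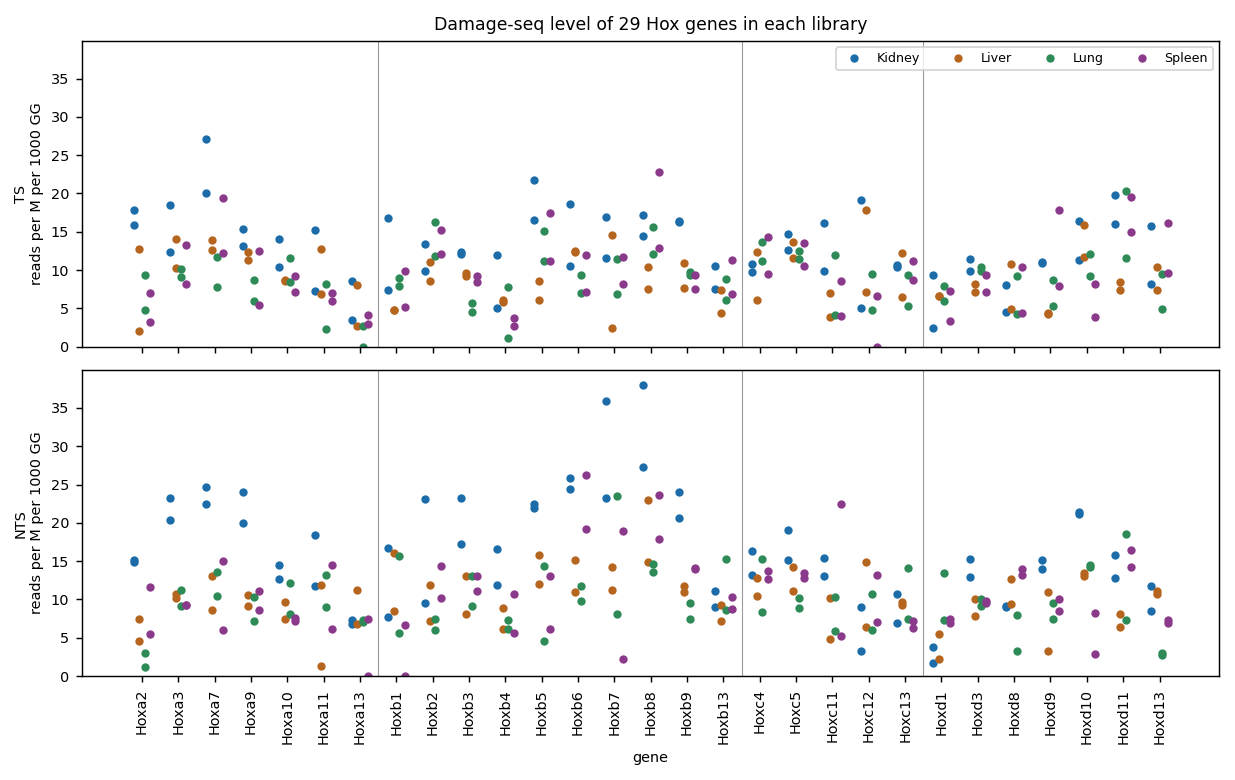
Damage-seq level (RPM per 1000 GG, linear axis from 0) of 29 Hox genes on TS (upper panel) and NTS (lower panel), with 1 point per library and 2 libraries per organ. On the NTS the kidney points stand above all others for 14 genes, most of them in Hoxa and Hoxb, and on the TS for 5.

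On the TS 3 of 29 members differed in any organ (31.9% of all genes), Hoxa3, Hoxa7 and Hoxb3, and both kidney libraries lay above all 6 others for 5 of the 30, against 18.7% of all genes. Hoxd8, with the most RNA in kidney, had 4.58 and 8.01 reads per 1000 GG of damage on the TS in kidney and 9.10 and 9.03 on the NTS, within the range of the other organs on both strands. Hoxa7 had 27.1 and 20.1 on the TS and 22.4 and 24.7 on the NTS in kidney, against 7.84 to 19.4 and 6.06 to 15.1 elsewhere. Hoxa9 had 13.1 and 15.3 on the TS and 24.1 and 19.9 on the NTS in kidney. Damage was lower on TS than on NTS for 7 of 29 members in kidney (20.9% of all genes), 2 in lung (27.1%), 1 in spleen (13.1%) and 0 in liver (32.7%), and higher for Hoxc5 in lung (1.51%). The kidney share is close to that of all genes and fell to 0 without the first kidney library, and the spleen call was lost without either spleen library. Liver had 1 member at an unadjusted p under 0.05. The other members with 1 RPKM in some organ had kidney NTS levels from 9.60 (Hoxb2) to 38.0 (Hoxb8) and kidney TS levels from 5.07 (Hoxb4) to 21.8 (Hoxb5). Kidney and lung libraries had 5328798 to 6441367 reads, liver 2440217 and 4037506, and spleen 1571167 and 2211070, so smaller differences could be called in kidney and lung.

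Few Hox genes passed the test after cisplatin. Of the 24 members tested, 0 were called in kidney (3.12% of all genes), 0 in lung (0.367%), 0 in spleen (0.136%) and 1 in liver (2.71%), where 0.403% of all genes were called higher. At an unadjusted p under 0.05 edgeR gave 0 of the 24 members in kidney (14.7% of all genes), 6 in lung (7.41%), 2 in spleen (3.02%) and 3 in liver (13.2%). With their control pairs counted as 1 sample, lung and spleen had no spread between controls of their own, and the fit assumed that this sample varied like the other groups. The lung members counted here, Hoxa9, Hoxa10, Hoxa11, Hoxb9, Hoxd8 and Hoxd11, were all lower after cisplatin. All but Hoxd8 were near the floor, with at most 35 reads in any lung library. DESeq2 also called 0 in kidney, lung and spleen. Over the 23 members with at least 20 reads in both kidney groups, log2 changes ran from -0.56 to 0.94 with a median of 0.14 and SEs of 0.29 to 1.04, so moderate changes could not be told from none. In kidney Hoxb9 changed by 0.77 (95% interval -0.09 to 1.63) and Hoxd8 by -0.41 (95% interval -1.19 to 0.37). Cdkn1a, a p53 target that served to check the treatment labels, was higher after cisplatin by 4.33 on the log2 scale in kidney (adjusted p = 0.0130), and its changes in the other organs, 3.05, 1.90 and 1.43, did not pass.

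**Figure D5:**
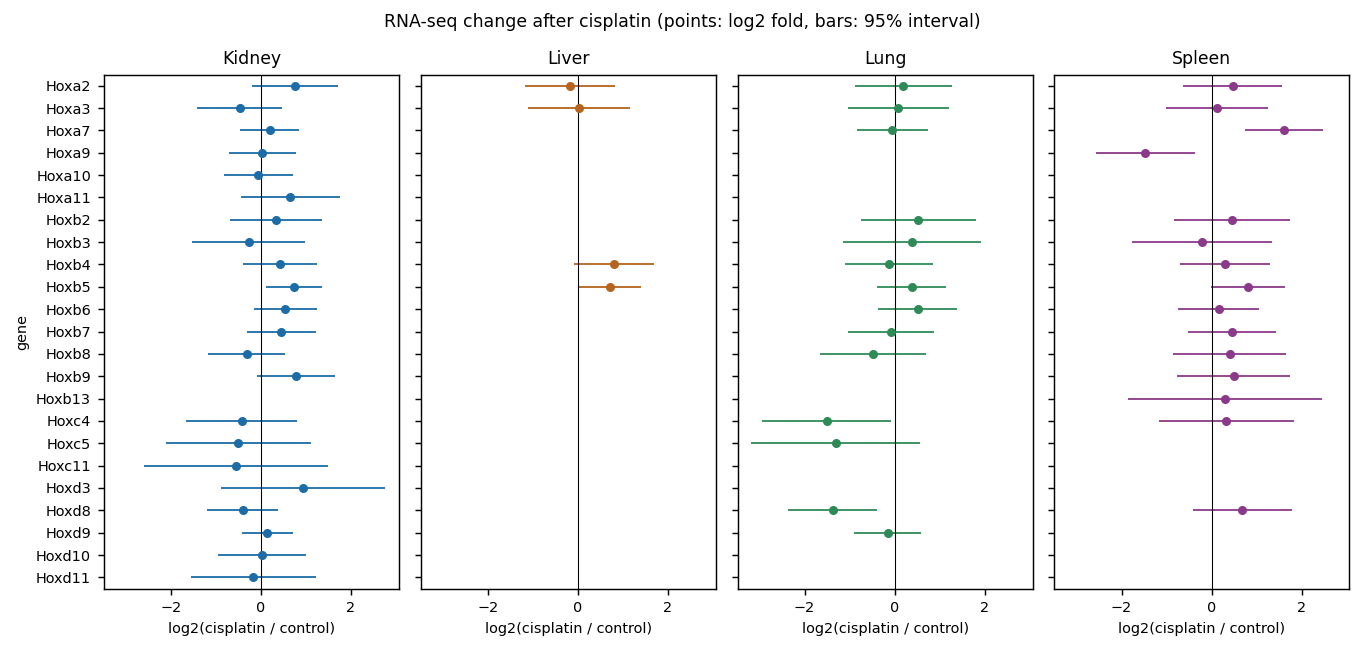
RNA-seq change after cisplatin (log2 of cisplatin over control, linear axis) in each organ for Hox genes shown that have at least 20 reads in both groups. Points are edgeR estimates and bars 95% intervals. Most bars cross 0, the largest changes are Hoxa7 (1.61) and Hoxa9 (-1.47) in spleen and Hoxc4 (-1.51) in lung, and none passed the adjusted threshold.

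The call in liver was Hoxa7, with 0 and 0 reads in the controls and 4 and 7 reads after cisplatin (edgeR adjusted p = 0.0432), at least 5.09-fold more with a floor of 3 reads over the controls. A change this near the floor was lost in a separate fit of liver and without 9 of the 16 libraries. In spleen Hoxa7 had 0.548 and 0.750 RPKM in controls and 1.70 and 2.60 RPKM after cisplatin; the groups did not overlap, but the change of 1.61 on the log2 scale (SE 0.44) had an adjusted p of 0.880 with the controls counted as 1 sample. In kidney and lung the Hoxa7 groups overlapped. In lung Hoxd8 had 0.817 and 0.923 RPKM in controls and 0.388 and 0.310 RPKM after cisplatin (log2 -1.38, SE 0.50, adjusted p = 0.52). Adipose markers in the same libraries summed to 393 and 396 RPKM in controls and 79.3 and 27.9 RPKM after cisplatin, and lymph node venule markers to 79.9 and 81.8 against 6.06 and 4.22 RPKM. Their part in the lung values of Hoxd8, Hoxc4 and the other members was not tested. Hoxa9 in lung had 0 and 35 reads in the controls, the pair counted as 1 sample, and 4 and 4 after cisplatin (adjusted p = 0.130). No difference of the cisplatin response between organs passed for any member, the smallest adjusted p over 144 such tests being 0.238. Of all genes 0.0576% passed for kidney against liver, 0.105% for kidney against lung, 0.298% for kidney against spleen, 0% for liver against lung, 0.0367% for liver against spleen and 0.0105% for lung against spleen. By unadjusted p under 0.05 these comparisons held 2, 4, 2, 4, 2 and 3 of the 24 members, and 7.12%, 7.37%, 8.73%, 6.76%, 6.87% and 4.25% of all genes.

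Partners and regulators of Hox proteins were counted for comparison. Of all 19099 genes tested, 595 were called in either direction after cisplatin in kidney and 517 in liver. Whether the changes of these lists differ from those of other genes was not tested. Of 9 PBC and MEIS cofactors, which bind DNA with HOX proteins, 2 fell in kidney after cisplatin, Pknox2 among them (log2 -1.69, SE 0.35), 1 in lung, again Pknox2 (log2 -2.54, SE 0.39), 0 in spleen and 1 in liver, Meis1 (log2 -2.01, SE 0.31). None rose in any organ. The median change of this list was -0.54 in kidney, -0.67 in lung, -0.44 in spleen and -1.05 in liver, against 0.00, 0.01, -0.03 and 0.00 over all genes. Of 8 members of PRC2, the complex that writes the repressive H3K27 methyl mark, Jarid2 fell in kidney (log2 -1.76, SE 0.29) and liver (log2 -1.98, SE 0.30) and the others did not pass. Of 12 PRC1 genes, which compact marked chromatin, 1 rose in kidney and none passed in lung, spleen or liver. None of 7 trithorax genes and H3K27 demethylases, which keep Hox genes active, passed in any organ, and of 12 tested genes of retinoic acid signalling and the Cdx family, which set Hox expression in the embryo, only Rarb passed, in liver (log2 -2.91, SE 0.55). Between organs, 7 of the 9 cofactors were lower in kidney than in lung (26.2% of all genes) and none higher, 4 were lower than in spleen (30.4%) and 1 higher, and 3 were higher than in liver (23.7%) and none lower. Of the 8 PRC2 genes, 7 were lower in kidney than in spleen (30.4% of all genes), where the median difference of the list was -1.26 against -0.11 over all genes. In kidney 3 PRC2 genes were lower than in lung (26.2% of all genes) and none higher, and 2 were higher (23.7%) and 1 lower than in liver.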

How the data were processed

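The authors deposited counts of reads per gene: TS and NTS counts for each Damage-seq and XR-seq library, and total counts for RNA-seq. Per the paper's methods and the submitters' processing notes, Damage-seq and XR-seq reads were trimmed with cutadapt, aligned to mm10 with BWA, deduplicated with Picard, kept where a GG stood at the expected place and assigned to strands; RNA-seq reads were aligned with STAR and counted with featureCounts. Versions are not given in the sources used here. In RNA-seq, 59.7% to 70.4% of values from 1 to 20 were even, so many fragments appear to be counted as both mates and the independent molecules behind a count are fewer. Floors and intervals cover counting error or model error only.

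Members and gene lists were chosen with earlier results of these data known. Organ contrasts (control and cisplatin averaged) and cisplatin contrasts came from edgeR 4.0.16 quasi-likelihood fits (R 4.3.3) over all genes that passed filterByExpr, with TMM scaling, tested against a log2 fold of 0.4; strand contrasts used GG sites as offset, with a library block, tested against 0. Adjusted p-values are Benjamini-Hochberg over all genes tested, at 0.05. The TS/NTS ratio tests between organs and pairwise XR-seq NTS and Damage-seq contrasts were added after seeing the data. Replicate pairs within 3 times the Poisson variance were summed in RNA-seq. Values by library are given for members with a mean of at least 1 RPKM in an organ and those called after cisplatin. DESeq2 1.42.0, RLE scaling, no filter, leaving out libraries and a replicate block were alternatives. Fits were tested on simulated data. A few genes are not reported here by name or drawn, but are kept in counts. Coordinates are mm10 (GENCODE M21); sequences are RefSeq's.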

Additional observations from a re-analysis of the deposited data

Results flagged for a closer look

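The TS/NTS ratio differed between organs for 4 members by a test of the difference itself (edgeR, adjusted over all genes). Each of the XR-seq differences below held 1 member, against 5.37% of all genes for kidney and liver, 10% for kidney and lung and 13.2% for liver and spleen, and each of the Damage-seq differences 1 member, against 9.04% for kidney and liver, 1.6% for kidney and lung and 6.29% for liver and lung. For Hoxd3 the XR-seq ratio was higher in kidney than in liver by 3.97 on the log2 scale (adjusted p = 0.00743) and than in lung by 2.85 (adjusted p = 0.0150), and the liver minus spleen difference was -2.34 (adjusted p = 0.0241). In Damage-seq the ratio of Hoxa3 was lower in kidney than in liver (log2 -0.70, adjusted p = 0.0191) and that of Hoxc5 lower in kidney than in lung (log2 -0.65, adjusted p = 0.0190), while that of Hoxb3 was higher in liver than in lung (log2 1.02, adjusted p = 0.0281). Hoxa3, Hoxc5 and Hoxd3 span other Hox genes, and reads of the genes inside cannot be told apart from their own.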

How the results depend on the processing

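Of the counts of Hox genes recomputed under other settings, 440 stayed within 1.5 times the reported count and 38 did not. Of the values of single genes, 3589 kept their direction and side of the threshold, 219 lost the threshold and 0 changed direction. By DESeq2, Damage-seq differed in any organ for 5 members on the NTS and 1 on the TS. In Damage-seq, TS and NTS differed in kidney for 4 members with no replicate block and 0 against a log2 difference of 0.4, and in lung for 1 against 0.4. In XR-seq, TS and NTS differed in liver for 2 members with no offset for GG and for 2 against 0.4. After cisplatin, 0 members were called in liver in a separate fit, 1 in lung with no filter on low counts and 1 in spleen with the replicate block. Lung and spleen differed for 4 members in the control samples only. At 0.5 RPKM, 1 member counted as expressed in liver and 10 in lung, and at 2 RPKM, 2 in spleen. In the control samples alone, a setting added after seeing the data, 2 counted as expressed in spleen. Leaving out 1 library at a time gave 3 to 10 members for Damage-seq NTS in any organ, 0 to 9 for Damage-seq TS against NTS in kidney and 0 to 1 in spleen, 0 to 3 for cisplatin in liver, 6 to 13 for RNA in lung against spleen, 2 to 6 for XR-seq TS in lung against spleen, and for XR-seq TS against NTS 1 to 5 in liver, 2 to 7 in lung and 5 to 9 in spleen. The causes were not tested. Samples share only a replicate number: deviations of same-numbered libraries correlated at 0.599 in kidney, 0.084 in lung, 0.247 in spleen and 0.518 in liver RNA, and between -0.131 and 0.152 elsewhere. With the replicate block and each library counted, calls among all genes after cisplatin went from 595 to 2006 in kidney, 70 to 1010 in lung, 26 to 118 in spleen and 517 to 1502 in liver, with 0, 0, 1 and 1 members.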
